A study of Mus musculus with 5 samples.

Results

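The homeobox transcription factor genes are described here in C17.2 cells, a long-established neural stem cell line of the mouse, by the openness of their start sites during the earliest 2 h of neural differentiation. Members were taken by symbol, as the genes of the named homeobox and paired box families (Hox, Gbx, Dlx, Emx, Nkx, Barhl, Msx, Tlx, En, Lhx, Isl, Pou, SINE, Irx, Meis, Pbx, Otx, Pitx, Prrx and Pax), with Pax6, Emx2 and Lhx2 left out by the rule. They came to 76 of 8034 genes in the deposited table, and to 365 of its 34714 sites. No member of the Meis family was among the listed sites, so those cofactors are not analysed here. The symbols fit the label, except that some Pax proteins carry the paired domain without a complete homeodomain.

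Chromatin was profiled by ATAC-seq, in which a transposase cuts and tags open DNA in isolated nuclei. All 5 libraries are of C17.2 cells of a CD1 x C57BL/6 background, a line that background knowledge traces to immortalised cells of newborn mouse cerebellum, so 1 line stands for neural progenitors here. The 0 h library is the control, from cells kept in DMEM/F12 with fetal bovine serum, and the libraries of 0.5, 1, 1.5 and 2 h followed a change to Knockout DMEM with GlutaMAX and N2 supplement. There was 1 library per time, so no test between times was possible, and values carry no p-value or replicate error.

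Each library has a column of whole numbers from 0 to 10, taken here to count the entries of its BED file over a site. A site with 1 or more entries is called covered. The read depth is unknown, and a value of 0 shows only that no entry lay over the site. In order of time, from 0 to 2 h, the libraries held 42527, 56773, 45254, 65824 and 59437 entries over all sites, so those of 0 and 1 h held the fewest. In pooled nuclei, a site open in fewer cells and a site less open in each cell cannot be told apart. Of 10 neural progenitor markers 5 were listed and 2, 3, 2, 4 and 3 of them were covered in order of time, with Sox9 at 4 entries in each library, Hes1 at 1 in each, Nes at 0 except for 2 at 1.5 h, and Msi1 at 0 throughout. Of 8 neuronal markers 4 were listed and 3, 3, 2, 3 and 3 were covered, with Map2 at 2 entries in each library and Rbfox3 at 0. Of 7 oligodendrocyte lineage markers 4 were listed, of which 1 was covered in each library while Olig1, Olig2 and Mbp held 0. Twist1, the 1 mesenchymal marker of 6 that was listed, held 2, 3, 3, 6 and 4 entries, 2 of 7 astrocyte markers were listed, of which 1 was covered at 0.5 and 1.5 h and none at the other times, and none of 5 microglia and blood markers was listed.

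Homeobox genes encode transcription factors that bind DNA through a helix-turn-helix domain, and combinations of them give cells their position along the body axis and their subtype in the neural tube. In cells where they are silent, their CG-rich start regions are typically held by Polycomb repressors, and in progenitors many carry both repressive and activating histone marks. Retinoic acid and trithorax proteins are known upstream inputs of the Hox clusters.

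RefSeq windows of 250 bases upstream of an annotated start were matched for 53 of the 76 members (assembly GRCm38.p6). The 6 runs below are shown because they set a gene covered in some libraries beside a close relative covered in none, and place CG-rich starts on both sides of that line. Capitals mark CG dinucleotides, each run reads 5′ to 3′ on the strand of its gene, and none reaches into the gene. Nkx6-1 (chr5:101664712-101664961, minus strand) differed between libraries and its relative Nkx6-2 (chr7:139582798-139583047, minus strand) was at 0 throughout, as was Isl1 (chr13:116309689-116309938, minus strand). Six5 (chr7:19094294-19094543, plus strand) was uncovered only at 0 h, and Irx3 (chr8:91801655-91801904, minus strand) and Dlx2 (chr2:71546755-71547004, minus strand) were covered in all 5 libraries.
Nkx6-1: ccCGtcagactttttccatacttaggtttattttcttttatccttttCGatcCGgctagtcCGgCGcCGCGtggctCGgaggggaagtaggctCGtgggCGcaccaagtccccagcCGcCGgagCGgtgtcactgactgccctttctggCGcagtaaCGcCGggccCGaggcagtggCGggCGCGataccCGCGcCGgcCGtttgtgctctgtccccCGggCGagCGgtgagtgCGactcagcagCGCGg
Nkx6-2: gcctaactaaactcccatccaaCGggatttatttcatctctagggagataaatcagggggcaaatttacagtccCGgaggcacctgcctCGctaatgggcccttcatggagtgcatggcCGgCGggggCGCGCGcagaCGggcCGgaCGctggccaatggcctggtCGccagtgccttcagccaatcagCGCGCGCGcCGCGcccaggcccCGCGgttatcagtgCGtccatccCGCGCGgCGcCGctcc
Isl1: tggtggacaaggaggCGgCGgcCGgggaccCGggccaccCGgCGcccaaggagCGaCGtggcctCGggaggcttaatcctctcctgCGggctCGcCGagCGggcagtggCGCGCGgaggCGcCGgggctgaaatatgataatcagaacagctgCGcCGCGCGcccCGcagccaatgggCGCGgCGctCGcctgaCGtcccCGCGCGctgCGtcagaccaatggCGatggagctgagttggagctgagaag
Six5: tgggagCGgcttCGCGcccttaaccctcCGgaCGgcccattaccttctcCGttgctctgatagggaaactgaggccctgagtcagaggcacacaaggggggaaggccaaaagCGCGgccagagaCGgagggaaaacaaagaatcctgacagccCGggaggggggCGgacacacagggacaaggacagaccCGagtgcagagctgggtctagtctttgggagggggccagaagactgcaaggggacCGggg
Irx3: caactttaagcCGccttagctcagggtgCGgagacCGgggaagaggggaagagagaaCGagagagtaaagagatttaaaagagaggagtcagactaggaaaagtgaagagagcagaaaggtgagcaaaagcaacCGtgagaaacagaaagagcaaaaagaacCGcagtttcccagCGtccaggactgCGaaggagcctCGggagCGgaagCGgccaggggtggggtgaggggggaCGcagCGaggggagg
Dlx2: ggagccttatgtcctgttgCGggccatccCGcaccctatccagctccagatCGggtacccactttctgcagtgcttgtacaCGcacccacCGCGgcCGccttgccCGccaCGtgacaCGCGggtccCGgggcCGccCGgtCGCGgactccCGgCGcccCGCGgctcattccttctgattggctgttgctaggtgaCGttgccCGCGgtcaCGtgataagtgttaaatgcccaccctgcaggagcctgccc

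The Nkx6-1 run holds 30 CG dinucleotides and that of Nkx6-2 holds 26, with a GC share of 65.2% in each. The Isl1 run, with 33, holds more CG than those of the covered genes Dlx2 (24), Six5 (13) and Irx3 (13). Of the listed sites, 3 lie inside the Nkx6-1 run and all 3 were covered in some library, while the 2 inside the Nkx6-2 run and the 3 inside the Isl1 run held 0 in every library. The sites of Six5, Irx3 and Dlx2 lie 460, 300 and 202 bp downstream of these starts, outside the runs.

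Most homeobox genes were uncovered. For each gene, the reported site is the one whose mean of the 5 libraries is highest. At 0 h, 20 of 76 members were covered (26.3%, Wilson 95% interval 17.7 to 37.2%), against 72.8% of all genes in the table. The number was 23 at 0.5 h (30.3%, against 76.6% of all genes), 20 at 1 h (against 72.4%), 25 at 1.5 h (32.9%, interval 23.4 to 44.1%, against 79.3%) and 25 at 2 h (against 78.3%). The intervals cover counting error over genes only and do not compare times, since the same genes are scored in each library. Members thus kept a low share at every time, and the times with more members covered were also those with more genes covered in the whole table. Covered members held about as many entries as other covered genes, with a mean of 2.35 at 0 h against 2.58 over all covered genes, and 2.52 at 1.5 h against 2.75. The members differed from the table more in how many were covered than in the number of entries of those that were.

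**Figure D1:**
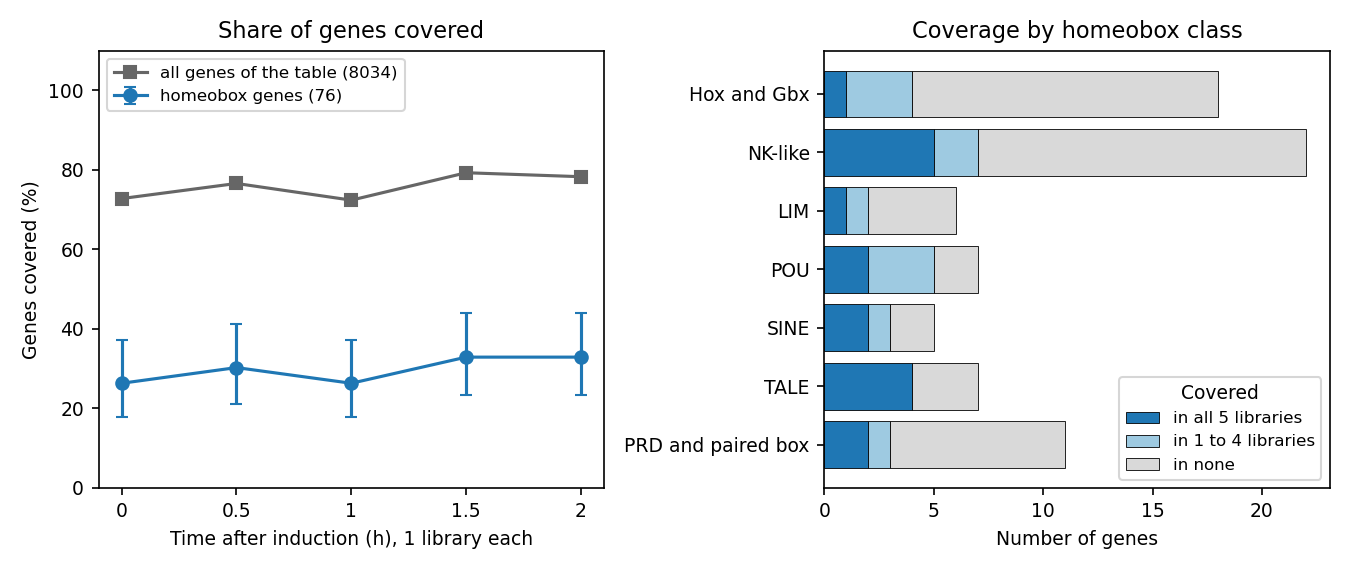
Left, the percentage of genes covered (1 or more BED entries at the reported site) in each library against time in h, for the 76 homeobox genes with Wilson 95% bars and for all 8034 genes. Right, the number of homeobox genes per class covered in all 5 libraries, in 1 to 4, or in none. The homeobox share stays between 26.3 and 32.9% while that of all genes is 72.4 to 79.3%, and 4 of 7 TALE genes are covered in all libraries against 1 of 18 Hox and Gbx genes.

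In all, 17 members were covered in each of the 5 libraries (22.4%, against 69% of all genes), 11 in 1 to 4 of them, and 48 in none (63.2%, against 19.2% of all genes). Of the 365 member sites, 299 were never covered (81.9%, against 30.6% of all sites). The uncovered genes were not short of listed sites in number, though not all had one near the 5′ end. The 48 genes had 252 sites and a median of 3 sites per gene, where covered members had 2. Of these sites, 145 lay within 1000 bp of the annotated 5′ end, in 29 of the 48 genes. The remaining genes had no listed site that near, so their zeros describe sites farther from the annotated 5′ end of the gene. Some of these sites lie near another RefSeq start of the gene, as for Irx2 (148 bp) and Pax1 (181 bp). Pou4f1, a factor of sensory neurons, had 27 sites, the posterior Hox gene Hoxa13 had 19, Gbx1 17, Nkx6-2 13, and Nkx2-4 and Pax7 11 each, and all of these sites were at 0 in each library.

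By class, the Hox clusters were the most uncovered. Hox genes give positional identity along the body axis, and 14 of the 18 Hox and Gbx genes were covered in no library. All 5 listed Hoxa genes (Hoxa7, Hoxa9, Hoxa10, Hoxa11 and Hoxa13) and all 4 Hoxd genes (Hoxd1, Hoxd3, Hoxd11 and Hoxd13) were at 0 throughout, as were Hoxb3, Hoxb7, Hoxb8, Hoxc12 and Gbx1. Of these, Hoxa7, Hoxa9, Hoxa10, Hoxb3, Hoxb7, Hoxb8, Hoxd3 and Hoxd11 had no listed site within 1000 bp of the annotated 5′ end. The reported sites of Hoxa10 and Hoxd11 nevertheless lie 740 and 322 bp from another RefSeq start of the gene. Of 22 NK-like genes, 15 were at 0 throughout, among them Barhl1, Barhl2, Dlx3, Emx1, En2, Msx3, Nkx1-1, Nkx2-1, Nkx2-4, Nkx2-5, Nkx3-2, Nkx6-2, Tlx2 and Tlx3. Of 11 PRD and paired box genes, 8 were at 0, among them Otx1, Otx2, Pax1, Pax5, Pax7, Pax8 and Pitx1, and of 6 LIM genes Isl1, Lhx1, Lhx5 and Lhx8. Coverage in at least 1 library was more common in the TALE, POU and SINE classes than in the other classes. TALE genes, which encode cofactors such as Pbx and the Iroquois factors, had 4 of 7 covered in each library, with Irx1, Irx2 and Irx4 at 0. POU genes had 5 of 7 covered in at least 1 library but 2 of 7 in all 5, with Pou4f1 and Pou4f3 at 0. SINE genes had 3 of 5 covered in at least 1 library and 2 of 5 in all 5, with Six2 and Six3 at 0. Of all genes in the table, 80.8% were covered in at least 1 library and 69% in all 5. The classes are small, and no test between them was run.

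Hoxb9, which patterns thoracic segments, was the only Hox gene covered at its reported site in all 5 libraries. At its site 509 bp inside the gene (chr11:96271839-96271844) it held 3, 6, 2, 5 and 2 entries in order of time. The libraries of 0.5 and 1.5 h were thus high and the other 3 low, and a second site at 596 bp held the same values. The neighbouring gene Hoxb8, whose site lies 12651 bp away, held 0 in each. Hoxc13, a gene of hair and nail formation, held 1 entry at 2 h only (chr15:102921192-102921194, 61 bp inside). Gbx2, which helps set the midbrain-hindbrain border, also held 1 entry at 2 h only, at 1 of its 7 sites, 995 bp inside the gene (chr1:89930181-89930181).

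The table gives Hoxc5 a group of 5 sites that RefSeq places about 32 kb before that gene, the most distant 32144 bp upstream (chr15:102981864-102981866), where it lists Hoxc9. These sites are therefore reported under the symbol of the table only. In order of time, the most distant held 3, 1, 2, 0 and 2 entries, while the other 4, which begin 31985 bp upstream, held 3, 1, 0, 1 and 2. Their 0 h value was the highest at each of the 5, and the library at 0 differed between neighbours. The 2 sites that lie nearer Hoxc5 held 0 in each library.

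Among NK-like genes, Nkx6-1 was covered in some libraries and not in others. It encodes a factor of ventral neural tube progenitors and of pancreatic beta cells. Its reported site, 34 bp inside the gene (chr5:101664670-101664677), held 0, 1, 0, 3 and 0 entries. It was covered at 0.5 and 1.5 h and at no other time, a pattern that 19 of 8034 genes showed (0.236%). At 0.5 h 7 of its 11 sites were covered, from 76 bp upstream to 75 bp inside, and at 1.5 h 6 sites from 76 bp upstream to 34 bp inside.

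The other NK-like members differed by at most 2 entries between libraries. Dlx2, a factor of forebrain interneurons, held 4, 4, 4, 3 and 2 entries at 0, 0.5, 1, 1.5 and 2 h, 202 bp inside the gene, and was lowest at 2 h. Its site past the 3′ end held 2 in each library. Dlx4 held 2 entries at 0.5 h and 1 in the other libraries. En1, which patterns midbrain and cerebellum, held 1 entry in each library at 310 bp upstream. Msx2, a BMP-responsive gene of skull formation, held 3 at 1 h and 2 in the others, at a site where Gm33763 is also annotated. Nkx2-2, a ventral neural tube gene, held 1 entry at each time except 2 h, when it held 0 (chr2:147194229-147194231, 1203 bp inside the gene, where an opposite-strand transcript, Nkx2-2os, is also annotated). Nkx2-3, known from gut and spleen, held 2, 3, 1, 2 and 1 at a site 514 bp beyond its 3′ end, which RefSeq places over Gm34922.

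The SINE class held Six5, the member with the largest difference from 0 h on the log2 scale. Six4, which acts in sensory placodes and muscle, held 1 entry at 0 h and 4 in each later library, 1481 bp inside the gene, a stretch also spanned by Mnat1 in RefSeq. The 0 h library was thus the lowest for Six4, and the later 4 did not differ. The nearby second site of Six4 held 0 at 0 h and 4 in each later library.

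Six5, which neighbours the myotonic dystrophy gene Dmpk, held 0, 3, 1, 2 and 6 entries in order of time (chr7:19095004-19095005, 460 bp inside the gene). All 3 of its sites, which reach to 662 bp inside, held the same values. On the log2(entries + 1) scale, which understates differences of low values, the difference between 2 h and 0 h was 2.81 for Six5 and 1.32 for Six4. Six5 was uncovered at 0 h only, a pattern that 192 of 8034 genes showed (2.39%), and its value at 1 h was the lowest of the later 4.

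**Figure D2:**
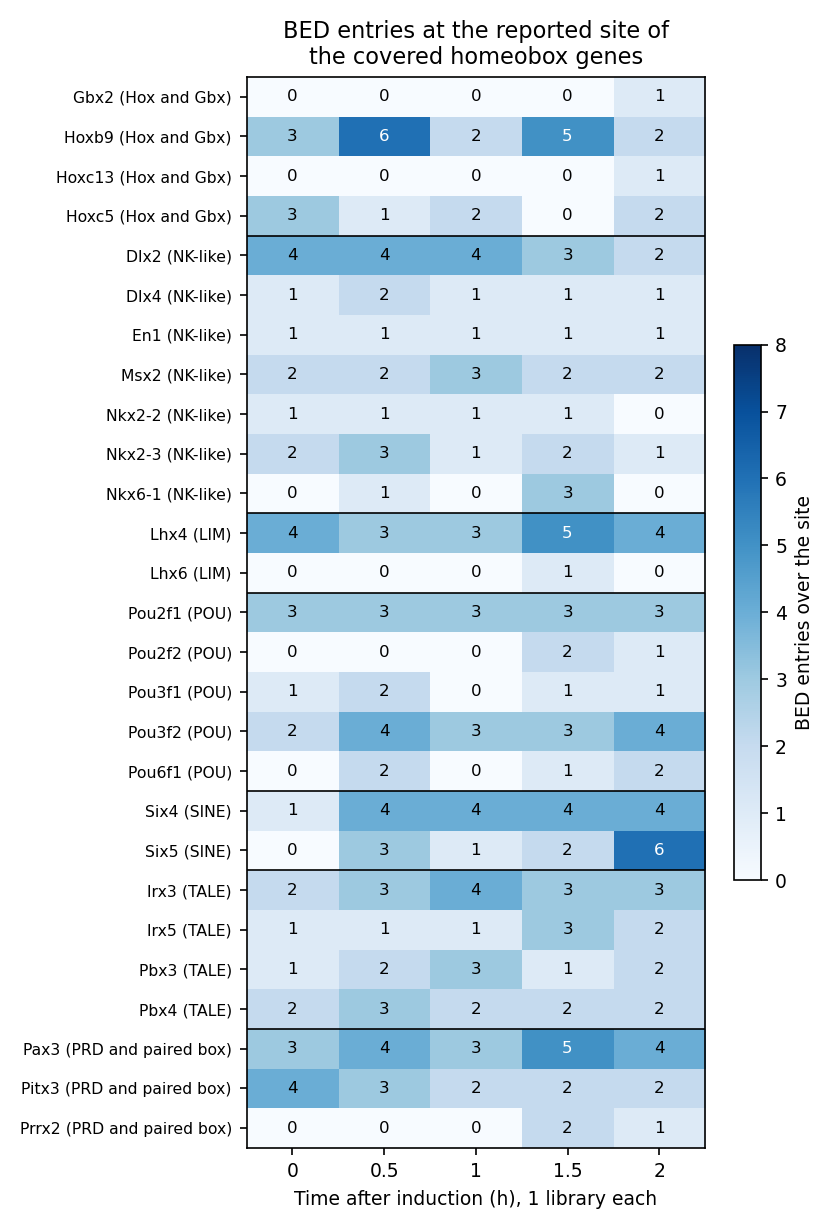
BED entries over the reported site (number in each cell, darker for more) of 27 of the 28 homeobox genes covered in any library, in rows by class, against time in h in columns. Six5 goes from 0 at 0 h to 6 at 2 h, and Hoxb9 is highest at 0.5 and 1.5 h.

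POU factors pair a POU-specific domain with a homeodomain. Pou2f1, the widely expressed Oct-1, held 3 entries in each library at a site 63 bp inside the gene and 0 at its other 4 sites. Pou3f2 (Brn2), a neuronal factor, held 2 at 0 h, then 4, 3, 3 and 4, and was lowest at 0 h. Its relative Pou3f1 (Oct-6), known from myelinating Schwann cells, held 1, 2, 0, 1 and 1 at 226 bp upstream (chr4:124657420-124657421), a site that RefSeq places over Gm2164. Pou3f1 was the only member uncovered at 1 h and covered at all other times, a pattern that 157 of 8034 genes showed (1.95%). Pou6f1 (Brn5) held 0, 2, 0, 1 and 2, so it was at 0 in the libraries of 0 and 1 h (chr15:100599898-100599906, 155 bp inside). Pou2f2 (Oct-2), a B cell factor, held 0 until 1 h, then 2 at 1.5 h and 1 at 2 h (chr7:25179649-25179649, 1148 bp inside).

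Among TALE genes, the Iroquois pair on chromosome 8 was covered while the listed genes of the other Iroquois cluster, Irx1, Irx2 and Irx4 on chromosome 13, held 0 at all of their 10, 9 and 4 sites. Irx3 held 2 entries at 0 h, then 3, 4, 3 and 3, 300 bp inside the gene. Irx5 held 1 entry at 0, 0.5 and 1 h, 3 at 1.5 h and 2 at 2 h, 183 bp inside. Of the 11 Irx5 sites, the numbers covered were 1, 4, 3, 7 and 7 in order of time, and the covered stretch, which began at 183 bp, ended at 183, 260, 238, 380 and 380 bp. The covered stretch of Irx5 was thus longest at 1.5 and 2 h, the libraries that also had the largest share of all sites covered (66.9% and 65.7%, against 47.6%, 58.7% and 51.2% at the earlier times). Pbx3, a Hox cofactor, held 1, 2, 3, 1 and 2 entries at 494 bp upstream and was highest at 1 h at that site. Of its 12 sites, 4, 6, 4, 7 and 5 were covered in order of time. Its sites 515 and 741 bp inside the gene held 0 at 1 h and 1 at 0.5 and 1.5 h. Pbx4 held 3 at 0.5 h and 2 in the other libraries.

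**Figure D3:**
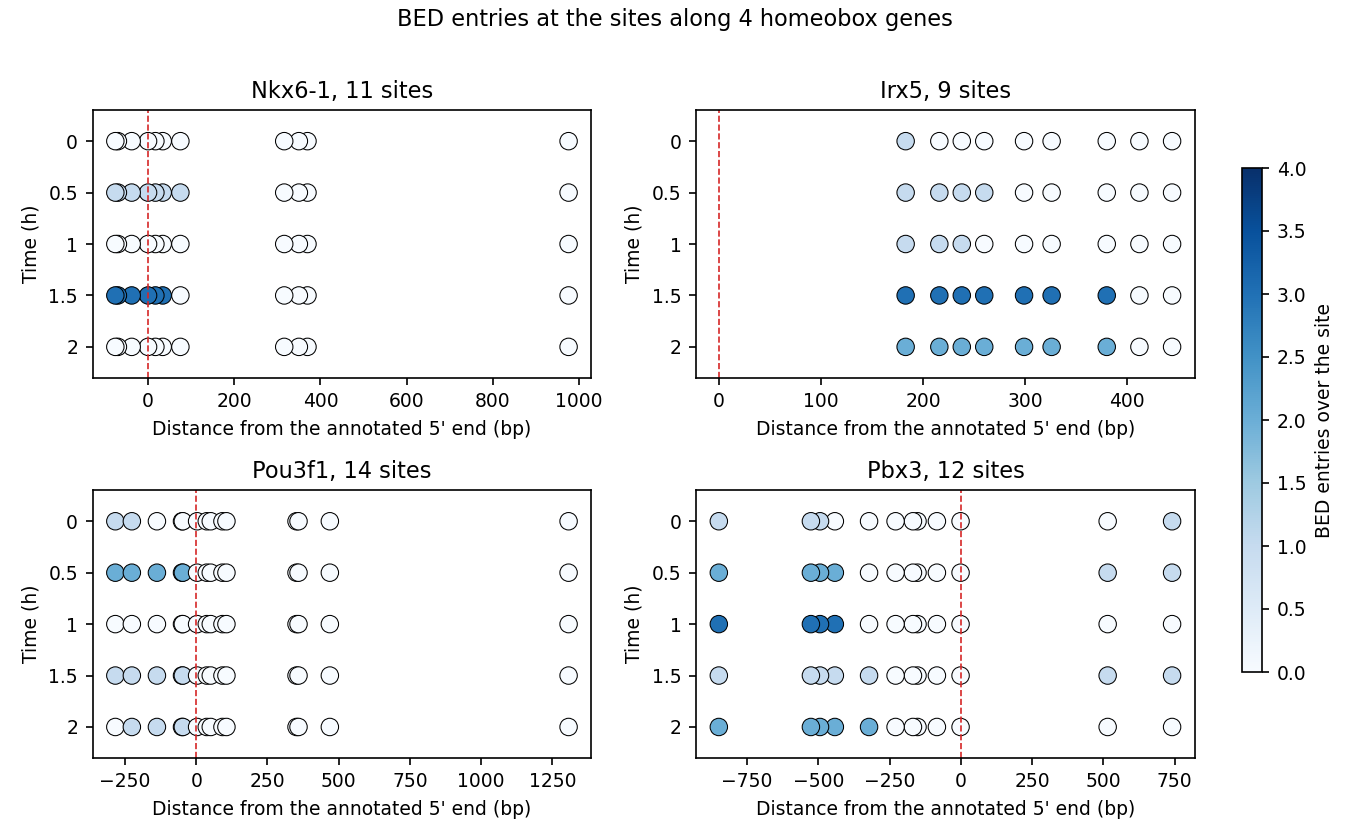
BED entries (colour) at each listed site within 1500 bp of the annotated 5′ end of Nkx6-1, Irx5, Pou3f1 and Pbx3, against distance in bp (0 is the 5′ end, dashed), with a row per library. Nkx6-1 is covered around its 5′ end at 0.5 and 1.5 h only, and the covered Irx5 sites reach 380 bp at 1.5 and 2 h against 183 bp at 0 h.

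The covered LIM and paired-class members lay mostly far inside their genes. Lhx4, a pituitary and motor neuron factor, held 4, 3, 3, 5 and 4 entries 9273 bp inside the gene, 426 bp upstream of a second RefSeq start. Lhx6, a marker of cortical interneurons, held 1 entry at 1.5 h only (chr2:36091076-36091077, 14915 bp inside). Pax3, a dorsal neural tube and neural crest factor, held 3, 4, 3, 5 and 4, 7558 bp inside. Pitx3, a factor of midbrain dopamine neurons and lens, held 4, 3, 2, 2 and 2 at a site 1085 bp before its 3′ end and 0 at its site near the 5′ end. The covered site of Pitx3 lies within 1500 bp of another gene, Elovl3. Prrx2, a mesenchymal factor, held 0 until 1 h, then 2 at 1.5 h and 1 at 2 h (chr2:30865016-30865025, 19952 bp inside), and its 5 other sites held 0. In all, 18 of the 28 covered members were reported at a site within 1000 bp of the 5′ end and 10 farther away.

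Compared with 0 h, the members gained at 0.5 h were Nkx6-1, Pou6f1 and Six5, 3 of the 56 uncovered at 0 h (5.36%, against 17.6% of all genes uncovered at 0 h), and none of 20 was lost (against 1.39%). At 1 h Six5 alone was gained (1.79%, against 10.3%) and Pou3f1 was lost (against 4.36%). At 1.5 h Lhx6, Nkx6-1, Pou2f2, Pou6f1, Prrx2 and Six5 were gained (6 of 56, 10.7%, against 25.9%) and Hoxc5 was lost (against 0.718%). At 2 h Gbx2, Hoxc13, Pou2f2, Pou6f1, Prrx2 and Six5 were gained (10.7%, against 24.2%) and Nkx2-2 was lost (against 1.42%). The gained share of members was below that of the table at each time. Of the 56, 48 were covered in no library, against 1542 of the 2187 genes of the table uncovered at 0 h. Six5 was gained at all 4 times and Pou6f1 at 3. Of the 8 genes gained at any time, Gbx2, Hoxc13 and Lhx6 reached no more than 1 entry.

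At a 2-fold difference on log2(entries + 1), 4 members were higher at 0.5 h (5.26%, against 8.18% of all genes) and 1 lower (against 2.19%), 3 higher at 1 h (against 4.72%) and 1 lower (against 4.99%). At 1.5 h 8 were higher (10.5%, against 11.4%) and 1 lower (against 1.83%), and at 2 h 7 were higher (9.21%, against 9.53%) and 1 lower (against 3.49%). These shares include the 48 members at 0 throughout, which cannot differ. Among the 28 members covered in any library, the shares at least 2-fold higher were 14.3%, 10.7%, 28.6% and 25% at 0.5, 1, 1.5 and 2 h, against 10.1%, 5.84%, 14.1% and 11.8% of the 6492 genes so covered. The latter comparison is a description without a test, since a gene uncovered at 0 h enters it only if it was covered later. On log2(entries + 1) every gained gene is at least 2-fold higher by definition. Gained genes made up 6 of the 8 higher members at 1.5 h and 6 of the 7 at 2 h, so these shares largely restate the gains. Beyond the gained and lost genes, those past 2-fold were Six4 at all 4 times, Pbx3 at 1 h, Irx5 at 1.5 h and, lower, Hoxc5 at 0.5 h. Scaled to the library totals, Six4 and Irx5 were not past 2-fold at 1.5 h. Dividing by the library totals shifts the median of all genes by up to −0.25 on the log2 scale, at 2 h. On that scale 4 members were higher (Nkx6-1, Pou2f2, Prrx2 and Six5) and 2 lower (Hoxc5 and Pitx3) at 1.5 h, and 3 were higher (Pou6f1, Six4 and Six5) and 3 lower (Dlx2, Nkx2-2 and Pitx3) at 2 h. Of all genes, 456 were then higher and 386 lower at 1.5 h, against 916 and 147 as deposited, and 430 higher and 486 lower at 2 h, against 766 and 280. The excess of higher over lower at 2 h was thus seen on the deposited scale only, for members and for the whole table.

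At 1 h, 7 members lay below both their 0.5 h and their 1.5 h value (9.21%, against 17.9% of all genes) and 5 above both (6.58%, against 7.47%). Among genes covered in any library, the shares were 25% of members against 22.2% below, and 17.9% against 9.24% above. Those below were Hoxb9, Nkx2-3, Nkx6-1, Pax3, Pou3f1, Pou6f1 and Six5, and those above included Pbx3, Irx3, Msx2 and Hoxc5. The totals of the 0 and 1 h libraries were also the lowest, and the part of this in the members' values was not tested.

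Member sites were less often covered than other sites in the same stretch around the 5′ end. Within 250 bp upstream of the 5′ end, 47 member sites of 21 genes were listed, of which 2, 8, 1, 8 and 5 were covered in order of time. Of the 8 covered at 0.5 h, 4 belonged to Pou3f1 and 3 to Nkx6-1. In the same stretch 66.6% of all sites were covered at 0 h and 78.8% at 1.5 h. Within 500 bp inside the 5′ end, 7.44% of 121 member sites were covered at 0 h and 17.4% at 1.5 h, against 52.9% and 74.4% of all sites there. Sites close together share entries: of 185 values compared between neighbouring member sites at most 200 bp apart, 165 were equal (89.2%), so sites of a gene are not independent.

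The upstream windows of covered and uncovered members overlapped in CG number. For a member the window nearest the reported site was used, and for listed genes and all genes the first window of each gene. A member's window can still lie far from its covered site, as for Pou2f2 (47189 bp). The median was 16 (quartiles 14 and 18.5) in the 11 matched members covered in all libraries, 15.5 in the 8 covered in some, and 19 (quartiles 10 and 26) in the 34 covered in none, which ranged from 3 (Hoxa9) to 47 (Pou4f1). Over all listed genes with a window, the median was 20 in the 4238 covered in all libraries and 15 in the 985 covered in none. That is the opposite order, though from windows chosen by the other rule. In GC share members and listed genes had the same order, with a median of 62% in members covered in all libraries and 60.4% in those covered in none, against 64% and 62.4% of listed genes. The GC box core GGGCGG, on either strand, was in 72.7% and 61.8% of these members' windows, against 70% and 58.4%, and in 32.9% of all windows. The median of all 27025 genes with a window, listed or not, was 6. The homeodomain core motif TAATTA, which reads the same on both strands, was found in 2 of 53 member windows (3.77%, against 1.64% of listed genes' windows and 4.9% of all windows), those of Msx2 and Hoxd11. The octamer ATGCAAAT, searched on both strands, was found in none, against 1.37% of listed genes' windows and 1.61% of all windows. A match or its absence describes these letters only.

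**Figure D4:**
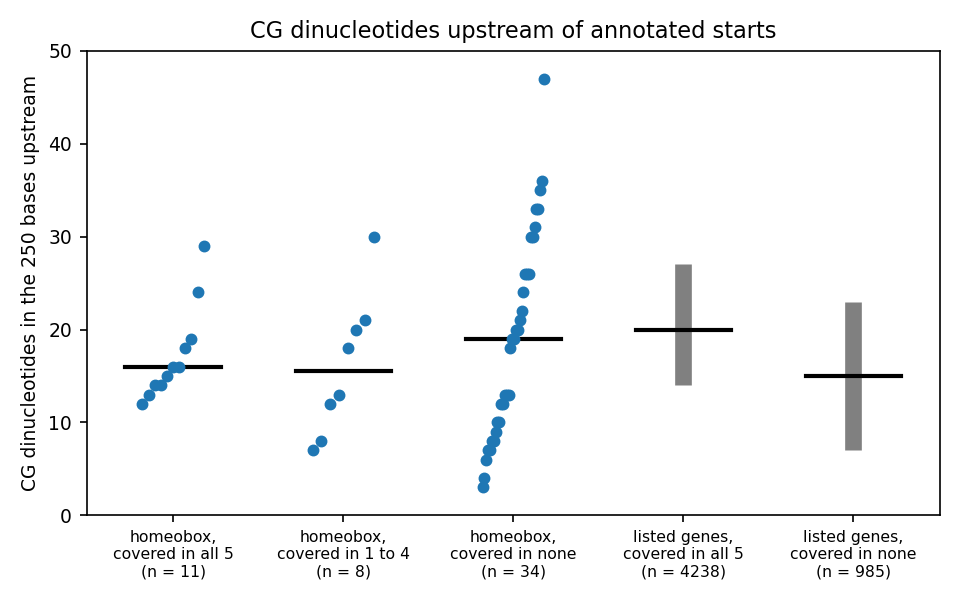
Number of CG dinucleotides in the 250 bases upstream of a RefSeq start, for matched homeobox genes covered in all 5 libraries, in 1 to 4 or in none (a dot per gene, black bar the median), and for all listed genes covered in all or in none (grey bar the middle 50% of genes). Homeobox genes covered in none reach from 3 to 47 CG with a median of 19, against 16 for those covered in all. The window is the nearest to the reported site for homeobox genes and the first of each gene for listed genes.

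Other homeobox genes, from a list outside the naming rule, were likewise often uncovered. Of 45 measured genes, 17, 20, 15, 21 and 18 were covered in order of time (37.8%, 44.4%, 33.3%, 46.7% and 40%, below the share of all genes at each time), and 24 were covered in none (53.3%, against 19.2%). Of the 17 covered at 0 h, 0, 4, 0 and 2 were lost at 0.5, 1, 1.5 and 2 h (against 1.39%, 4.36%, 0.718% and 1.42% of all genes). Of the 28 uncovered at 0 h, 3, 2, 4 and 3 were gained (against 17.6%, 10.3%, 25.9% and 24.2%). The shares at 1 h, a library with few entries, were 23.5% lost and 7.14% gained. The zinc finger homeobox gene Tshz1 held 0, 3, 1, 4 and 4 entries, and Tgif2, a TGF-beta corepressor, 3, 3, 0, 4 and 0. Pknox2, a TALE factor, held 6, 4, 3, 3 and 2, Satb1, a chromatin organiser, 1, 1, 2, 5 and 5, and Phox2a, a factor of autonomic neurons, 0, 1, 0, 1 and 2. The reported sites of Satb1 and Phox2a lie 19817 and 3504 bp downstream of the annotated 5′ end. Those of Tshz1, Tgif2 and Pknox2 lie 230, 475 and 502 bp downstream.

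Among known regulators of homeobox genes, Polycomb and trithorax genes were covered about as often as the table or somewhat more, and retinoic acid genes less. Of 40 measured Polycomb and trithorax genes, the numbers covered were 31, 33, 29, 37 and 34 in order of time (77.5%, 82.5%, 72.5%, 92.5% and 85%, against 72.8%, 76.6%, 72.4%, 79.3% and 78.3% of all genes). At 0.5, 1, 1.5 and 2 h, 6, 3, 8 and 5 of the 40 were at least 2-fold higher (against 8.18%, 4.72%, 11.4% and 9.53% of all genes). At these times 1, 4, 0 and 1 were lower (against 2.19%, 4.99%, 1.83% and 3.49%). Kdm6a, an H3K27 demethylase, held 0, 3, 4, 4 and 4 entries and its paralogue Kdm6b 4, 0, 0, 4 and 0. Kmt2a, the trithorax methyltransferase of Hox genes, held 0, 0, 3, 3 and 0, Kmt2d 0, 3, 0, 4 and 0, and Rybp, a Polycomb subunit, 3, 4, 0, 7 and 4. Of 11 measured retinoic acid genes, 3, 4, 2, 5 and 4 were covered in order of time and 6 in no library (54.5%, against 19.2% of all genes). Rarg, a retinoic acid receptor, held 1, 1, 0, 5 and 0 entries, and the degrading enzymes Cyp26b1 and Cyp26c1 held 0, 1, 0, 2, 1 and 0, 0, 0, 2, 1. Rxrb, a partner receptor, held 1, 4, 2, 2 and 2. The reported sites of Rarg, Cyp26b1 and Cyp26c1 lie 9735, 4874 and 7880 bp downstream of the annotated 5′ end, and that of Rxrb 26 bp upstream.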

How the data were processed

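Nuclei of C17.2 cells were profiled by ATAC-seq at 0, 0.5, 1, 1.5 and 2 h, with 1 library per time. The submitters' processing notes name the build GRCm38 (mm10) with Bowtie2, MACS2 and deepTools. Settings, read shifting and duplicate removal were not stated. The deposited values are, per the file headers, whole numbers in columns named after BED files. Their reading as entries over a site is an inference from the values and the column names. Neighbouring sites mostly hold equal values, but those compared lie at most 200 bp apart, so this does not settle what an entry is. Whether the values are read counts or were normalised is not stated, and depth is unknown.

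Values were read with pandas 2.3.3 in Python 3.11.15. Each gene was represented by the site of highest mean, on which the covered, gained, lost and 2-fold calls were made, with a pseudocount of 1 and no filter on low values. Distances use gene ends of RefSeq GRCm38.p6, and 76 of 76 symbols matched. The 762 sites without a gene were left out. Members are named, covered ones with each value, except that some genes are not reported here. Genes of other lists are named by the size of their largest difference, at most 6 a list. The members and the lists were chosen with earlier results of these data known. The counting was tested on simulated data. Alternatives changed the site per gene, the coverage minimum, the pseudocount, the filter, the scaling and the unit counted.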

Additional observations from a re-analysis of the deposited data

How the results depend on the processing

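Of 136 comparisons of a share of members with its value under an alternative, 88 stayed within 1.5 times and 48 did not. A pseudocount of 0.5 moved none of 8, but a smaller pseudocount can only add 2-fold calls. It therefore cannot show how far the calls rest on low values. Counted by site, the covered shares were 9.59%, 15.3%, 9.86%, 17% and 14.8% in order of time, against 47.6%, 58.7%, 51.2%, 66.9% and 65.7% of all sites. By site, 7.12% were covered in all libraries, 20%, 2.86% and 8.57% were lost at 1, 1.5 and 2 h, 6.67% were gained and 0.822% were lower at 2 h. With 2 or more entries required, 17.1% of members were covered at 0 h and 14.5% in all libraries, 9.52% and 3.17% were gained at 0.5 and 1 h, and 7.69% (1 of 13) were lost at each later time. With the site nearest the 5′ end, 17.1% were covered at 0 h, 3.17% were gained at 1 h, 0 of 13 were lost at 1 and 1.5 h and 7.69% at 2 h, and 0 were lower at 0.5, 1 and 1.5 h. With the highest value of any site, 0 were lost at 1.5 h, against 5% (Hoxc5). With sites within 1000 bp only, 8.11% and 2.7% were gained at 0.5 and 1 h, 7.69% were lost at 1 h and 0 at 1.5 and 2 h, and 2% were lower at 1 h and 0 at the other times. Among the 13 members whose mean of the 5 libraries was at or above that of the median gene, 2 (15.4%) were higher at 0.5, 1 and 2 h and 0 were lower. That mean includes the later values, and the share of all genes under this filter was not computed. Scaled to library totals, 5.26% were higher and 2.63% lower at 1.5 h, and 3.95% each at 2 h. No paired analysis was possible because each time has 1 library.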

Other observations

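Transcripts named after homeobox genes or running against them were chosen after the values were seen. Of 9 such symbols in the table, 5 were covered in some library, against 80.8% of all genes. Hoxd3os1, in the HoxD cluster, had 25 listed sites, of which 0, 6, 6, 9 and 8 were covered in order of time. Its reported site (chr2:74704817-74704818) held 0, 1, 2, 3 and 1 entries. Hoxd3 held 0 in each library, but its listed sites lie 28594 and 34882 bp inside the gene, so its 5′ end is not compared. Hotairm1, a non-coding gene at the anterior end of the HoxA cluster, held 3, 4, 3, 4 and 4 entries (chr6:52158551-52158555). All 5 listed Hoxa genes held 0, at sites elsewhere in the cluster, the nearest that of Hoxa7 (chr6:52216964-52216966). Dlx1as held 3, 4, 4, 3 and 3. Dlx4os and Nkx2-2os held the values of Dlx4 and Nkx2-2 in each library, at sites close to theirs, and are not separate measurements. Dlx6os1, Hoxb3os, Hoxb5os and Lhx1os held 0 throughout.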
